A study of Mus musculus with 10 samples.

Results

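Messenger RNA of 10 genes tied to FoxO factors and the response to fasting was followed in the kidneys of old mice on a control diet or under calorie restriction. The genes are Foxo1, Foxo3, Foxo4, Sesn1, Sesn3, Klf15, Klf9, Cited2, Bcl6 and Gadd45a, out of 18194 named genes on the array. They were taken with every probe set that the platform annotation gives to exactly 1 of these symbols, which gave 28 of the 45101 probe sets. The animals were male C57BL/6 mice aged 30 months, 5 on a control diet and 5 under long-term calorie restriction, with no other treatment or allele in the labels. Each mouse gave 1 Affymetrix Mouse Genome 430 2.0 array of whole kidney RNA. The sources used here do not give how strong the restriction was, how long it lasted or whether the mice had eaten before the kidneys were taken. The values are the authors' MAS5 signals, a linear brightness per probe set in arbitrary units, and a difference is the log2 signal in calorie restriction minus that in control, ± the standard error of limma with n = 5 mice per group.

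FoxO factors are forkhead transcription factors that insulin and growth factor signalling hold in the cytoplasm: the kinase Akt phosphorylates them, and 14-3-3 proteins then bind them. When insulin falls, as in fasting, they enter the nucleus and switch on genes of stress defence, growth arrest, autophagy and glucose production. Much of this control acts on the proteins, so the RNA of a FoxO gene need not follow the activity of its protein, which arrays do not measure. Glucocorticoids, which rise in fasting, act beside them through their receptor, and Klf9 and Klf15 are known targets of that receptor.

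The FoxO core site, the glucocorticoid receptor half-site and the E-box (a site of basic helix-loop-helix factors such as the circadian clock proteins) were searched on both strands of RefSeq promoter windows (GRCm38.p6), from 250 bases before to 50 bases after each annotated start. Windows were found for 9 of the 10 genes, 11 in all, with 2 starts each for Sesn1 and Bcl6. Foxo4 had none. The FoxO core GTAAACA, or TGTTTAC on the other strand, stood in 3.65% of all 32851 mouse windows and in 2 of the 11 windows here, those of Sesn1 (first start) and Klf9. They are shown because Sesn1 was the gene whose RNA fell, and because Klf9 holds the same letters. Each is given 5′ to 3′ on the gene's strand, here the plus strand, with the core in capitals.
Sesn1, chr10:41810584-41810613, positions 11 to 40 after the first start: agaaccttctacTGTTTACcagccttttgg
Klf9, chr19:23141114-23141143, positions -112 to -83: cagggggagaaaGTAAACAgagttgaatca
Sesn1, second start, chr10:41887189-41887438, the 250 bases before it: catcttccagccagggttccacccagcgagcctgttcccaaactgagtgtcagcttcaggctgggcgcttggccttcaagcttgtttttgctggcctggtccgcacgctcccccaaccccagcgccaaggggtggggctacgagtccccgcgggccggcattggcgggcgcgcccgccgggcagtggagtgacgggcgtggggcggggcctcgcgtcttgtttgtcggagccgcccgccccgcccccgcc
The second Sesn1 start, 71.0% G and C over its whole window, held none of the searched letters.

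The E-box CACGTG, which reads the same on both strands, stood in 7.15% of all windows and in 3 of the 11 here. Klf15 held it at 3 places, and Cited2 and the first start of Bcl6 at 1 place each. Klf15, on the plus strand, is shown for its repeats, and Cited2, also on the plus strand, because its main probe set was among the 3 genes with the smallest p.
Klf15, chr6:90462336-90462365, positions -240 to -211: ctcccgaggtccCACGTGgtctgcacttcg
Klf15, chr6:90462392-90462421, positions -184 to -155: tagaacccgtctCACGTGcgcatcggagga
Klf15, chr6:90462561-90462590, positions -15 to 15: cgcccgcggcgtCACGTGagcggccggaga
Cited2, chr10:17723063-17723092, positions -165 to -136: gcagccgctgcgCACGTGcagcgcggactc
The half-site TGTTCT, or AGAACA on the other strand, stood in 19.0% of all windows and in 1 here, the second start of Bcl6. It is shown, on the minus strand of the genome, because it is the 1 match to this motif among the members.
Bcl6, chr16:23981390-23981419, positions -136 to -107: gctgggcaggagTGTTCTgtgaaatcctta
The windows of Gadd45a, Foxo1, Foxo3 and Sesn3 held none of the searched letters. A match describes letters only, and enhancers outside these windows were not searched.

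All arrays shared 1 trimmed mean (2% left out at each end), but their plain means were 755 to 768 in control and 786 to 831 in calorie-restricted mice, without overlap, and their medians lay between 114.7 and 136.2. The arrays were those of kidney: all 15 proximal tubule markers passed the filter on low signal, the dimmest at a mean of 2992. The log2 ratio of 3′ to 5′ signal (mean of Gapdh and Actb), a measure of RNA length and labelling, averaged 1.05 ± 0.26 on control arrays and 1.67 ± 0.46 on restricted ones (SD, n = 5 each, 2-sided exact permutation p = 0.0476). The high arrays were 3 of the restricted mice, replicate 1 at 2.21, replicate 2 at 2.01 and replicate 3 at 1.75, while replicates 4 (1.24) and 5 (1.16) fell inside the control range of 0.76 to 1.39. The difference of 0.62 missed 0.05 when replicate 1, 2 or 3 of a group was left out (exact permutation p = 0.0714 or 0.0794). Since this ratio differed between the diets, results are also given with it as a covariate and for the 4 arrays of replicates 4 and 5.

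Sesn1, the gene of sestrin 1, was the only 1 of the 10 genes called in the limma fit of all 10 arrays, and it fell in calorie-restricted kidney on each of its 3 tested probe sets. These were 3 of the 23 tested member probe sets (13.0%). Among all genes and unnamed features, 6.09% of 22519 tested probe sets were called in either direction at a Benjamini-Hochberg adjusted p under 0.05, and 3.16% were called lower. The 3 calls belong to 1 gene and are not 3 separate results. Of the 23 differences 12 were above 0 and 11 below, with a median of 0.02 beside a median of 0.00 for all tested probe sets. Of the 10 genes taken by their brightest probe set, 1 was called, against 6.1% of 12196 tested genes.

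**Figure D1:**
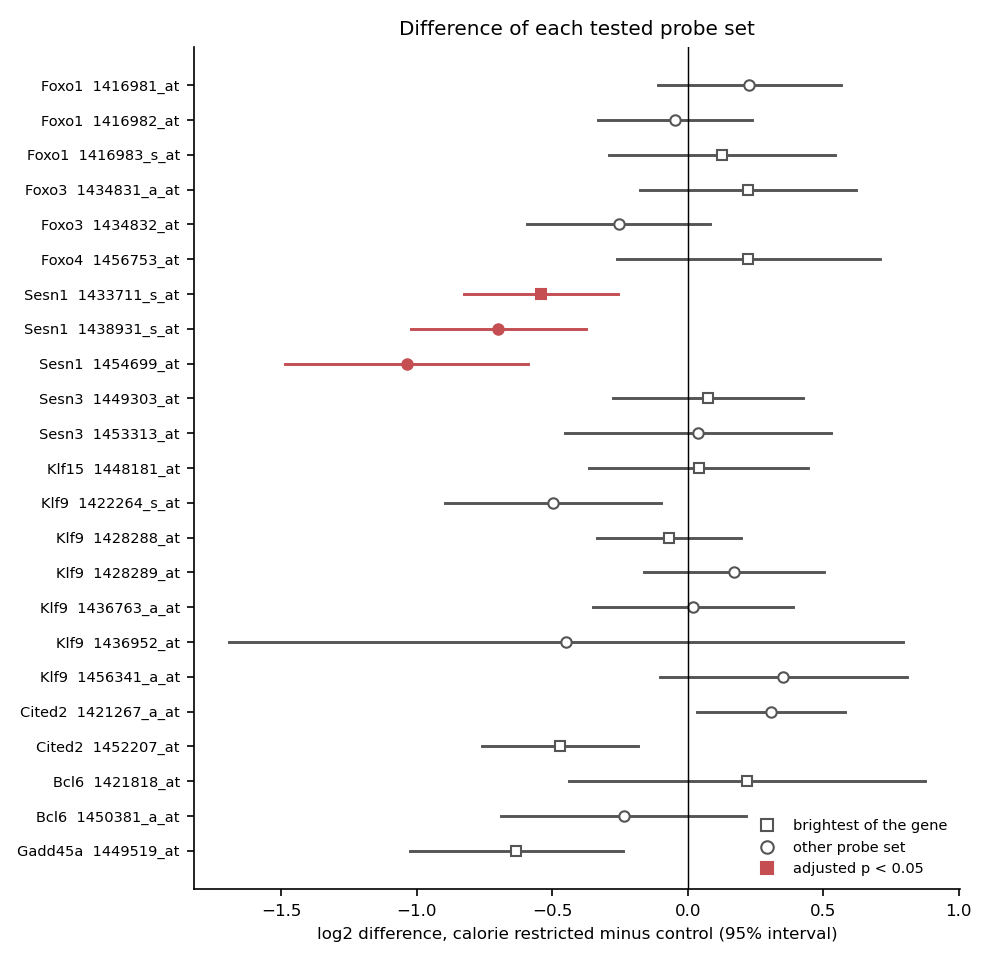
Log2 difference, calorie restricted minus control, of each of the 23 tested probe sets of the 10 genes (points) with its 95% interval from limma (lines, n = 5 mice per group). Squares mark the brightest probe set of a gene and red marks an adjusted p under 0.05: the 3 Sesn1 probe sets, from -0.54 to -1.04, are the red ones, while the 2 Cited2 probe sets lie on opposite sides of 0.

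The sestrins are described first. Sesn1 is a target of both p53 and FoxO factors, and sestrin proteins hold back the growth kinase complex mTORC1 when amino acids are scarce. Its brightest probe set, 1433711_s_at, had signals of 910.4, 1109.6, 937, 951 and 1298 in control replicates 1 to 5 and of 629, 676, 622, 812 and 834 in calorie-restricted replicates 1 to 5. Every calorie-restricted mouse lay below every control mouse, and replicates 4 and 5 were the nearest to the controls. The mean fell from 1041 ± 164 to 714 ± 101 (SD, n = 5 each), a difference of -0.54 ± 0.13 (95% interval -0.83 to -0.26, limma adjusted p = 0.0343), or a fold of 0.687.

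The second Sesn1 probe set, 1438931_s_at, read 747, 954, 571, 912 and 902 in the controls and 562, 457, 443, 466 and 562 in the calorie-restricted mice. The groups did not overlap here either, although control replicate 3 came within a few units of the highest calorie-restricted mice. The difference was -0.70 ± 0.15 (95% interval -1.02 to -0.38, limma adjusted p = 0.0233). The third, 1454699_at, read 368, 428, 378, 349 and 366 in the controls and 146, 184, 117, 259.7 and 257 in the calorie-restricted mice. This was the widest gap of any member probe set, with a tight control group and with calorie-restricted replicates 1 to 3 lower than 4 and 5. The difference was -1.04 ± 0.21 (95% interval -1.48 to -0.59, limma adjusted p = 0.0204), or a fold of 0.488.

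The size of the fall of Sesn1 moved with the 3′ to 5′ ratio on 2 of the 3 probe sets. With the ratio as a covariate the differences were -0.38 ± 0.17, -0.74 ± 0.20 and -0.60 ± 0.23 for 1433711_s_at, 1438931_s_at and 1454699_at, and in replicates 4 and 5 alone they were -0.43 ± 0.18, -0.83 ± 0.16 and -0.47 ± 0.20. All of these stayed below 0, and none passed the threshold (limma adjusted p = 0.172 to 0.351 with the covariate and 0.0704 to 0.310 in the 4 arrays); those fits called 0.04% and 0.879% of all tested probe sets. The part of RNA length in the fall was not tested beyond these values. Leaving out 1 mouse at a time gave -0.60 to -0.46 for the brightest probe set, with adjusted p from 0.0197 to 0.0869. Its call was lost without control replicate 2, 3, 4 or 5 or without calorie-restricted replicate 1, 2 or 3. After quantile normalization, which called 3.33% of all tested probe sets, it was -0.49 ± 0.13 with a limma adjusted p of 0.0533, while the other Sesn1 probe sets passed at -0.64 and -1.05.

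One more Sesn1 probe set, 1444376_at, was too dim to be tested. It read 47.7, 32.2, 57, 27.6 and 60.2 in the controls and 50.8, 106, 56.4, 62.5 and 78 in the calorie-restricted mice, and its value of 0.67 ± 0.37 pointed the other way from the 3 brighter ones. Sesn3, the gene of another sestrin and a FoxO target, was not called. Its brightest probe set, 1449303_at, read 644, 785, 714, 710.3 and 595 in the controls and 815, 637, 1072, 628 and 563 in the calorie-restricted mice. The groups overlapped throughout, with calorie-restricted replicate 3 highest. The difference was 0.07 ± 0.16 (95% interval -0.28 to 0.42, limma adjusted p = 0.811), and the other Sesn3 probe set gave 0.04 ± 0.23. Whether Sesn1 and Sesn3 differ in their response was not tested. The interval of the brightest Sesn3 probe set met that of the brightest Sesn1 probe set and not those of the 2 dimmer tested ones. The other Sesn3 probe set, 1453313_at, had a 95% interval of -0.45 to 0.53. That interval met those of the brightest Sesn1 probe set and of 1438931_s_at (-1.02 to -0.38). It did not meet that of 1454699_at (-1.48 to -0.59).

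**Figure D2:**
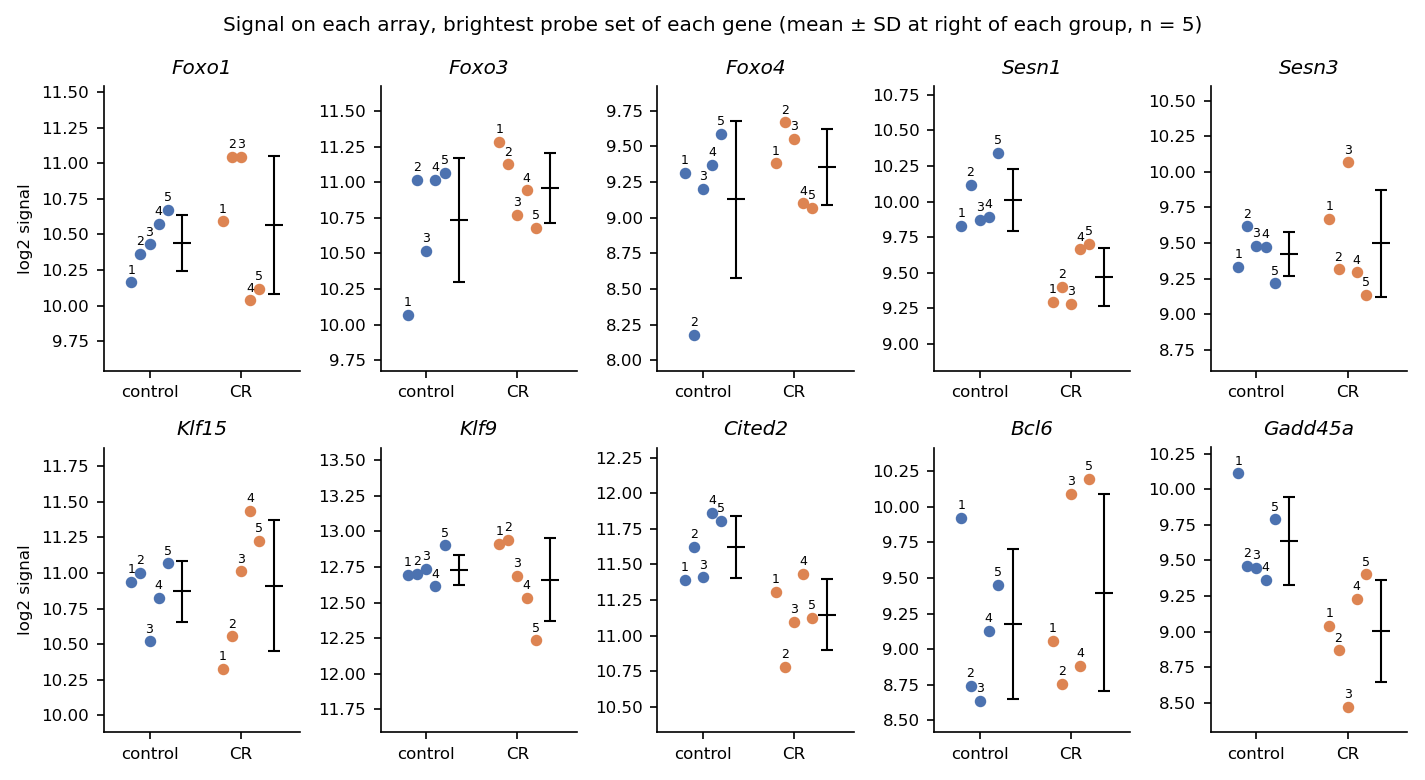
Log2 signal of the brightest probe set of each of the 10 genes on each array (points, numbered by replicate), control and calorie restricted (CR), with the group mean ± SD at the right of each group (n = 5). All 5 CR points of Sesn1 lie below all 5 control points, and in the other 9 panels the groups overlap. Vertical scales differ between panels, so levels are not to be compared between genes.

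The 3 FoxO genes themselves were not called. For Foxo1 and Foxo4 calorie-restricted replicates 1 to 3 lay above replicates 4 and 5 on the brightest probe set, and for Foxo3 these replicates overlapped. Foxo1, the main FoxO of insulin signalling in liver, read 1147, 1316, 1380.1, 1523 and 1633 on its brightest probe set (1416983_s_at) in the controls and 1543, 2113, 2112, 1051 and 1110.1 in the calorie-restricted mice. Calorie-restricted replicates 2 and 3 were above every control, and replicates 4 and 5 were below every control. The difference was 0.13 ± 0.19 (95% interval -0.29 to 0.54, limma adjusted p = 0.717). The other tested Foxo1 probe sets gave 0.23 ± 0.16 (1416981_at) and -0.05 ± 0.13 (1416982_at).

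Foxo3, the family member most studied in longevity, read 1074, 2069.7, 1466, 2071 and 2145 on 1434831_a_at in the controls and 2491, 2233, 1748, 1969 and 1639 in the calorie-restricted mice. The lowest value was control replicate 1, and calorie-restricted replicates 1 and 2 were above every control. The difference was 0.22 ± 0.19 (95% interval -0.18 to 0.62, limma adjusted p = 0.472), whereas the dimmer Foxo3 probe set 1434832_at gave -0.25 ± 0.16 (adjusted p = 0.321). Foxo4 is an X-linked member of the family with a like DNA-binding domain. It read 636, 289.8, 589, 662 and 769 on 1456753_at in the controls and 667, 815, 752, 549 and 536 in the calorie-restricted mice. Control replicate 2 stood far below all others, and the rest of the groups overlapped. The difference was 0.22 ± 0.23 (95% interval -0.26 to 0.71, limma adjusted p = 0.561), and -0.01 without that mouse.

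The direction of all 3 FoxO genes turned once the 3′ to 5′ ratio was taken into account. With the ratio as a covariate the brightest probe sets were at -0.33 for Foxo1, -0.09 for Foxo3 and -0.22 for Foxo4, and in replicates 4 and 5 alone they were at -0.55, -0.23 and -0.39. None of these passed the threshold (limma adjusted p = 0.493, 0.903 and 0.760 with the covariate, and 0.111, 0.449 and 0.293 in the 4 arrays). No direction can therefore be given for the RNA of Foxo1, Foxo3 or Foxo4 in these kidneys, and the 95% intervals above leave room for a rise of the Foxo4 signal by 0.71 or a fall by 0.26.

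**Figure D3:**
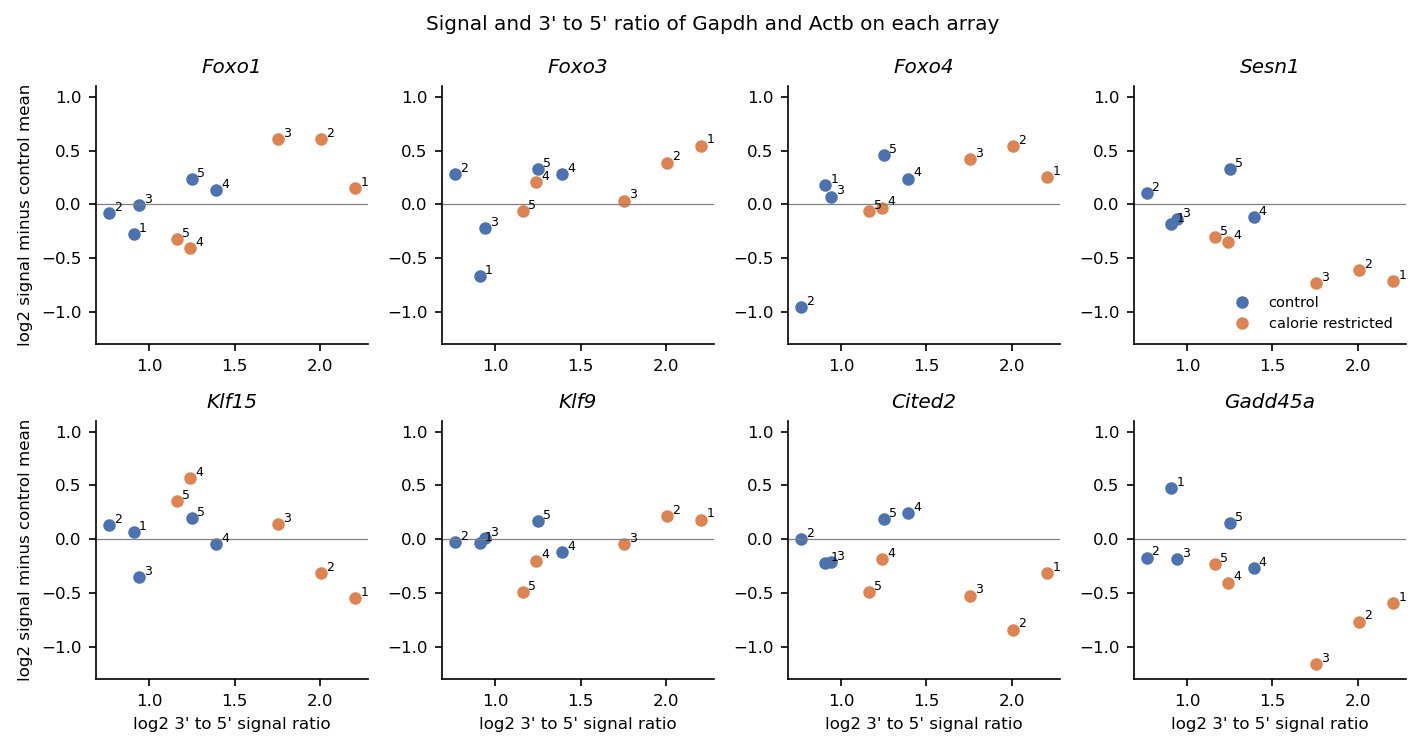
Log2 signal of the brightest probe set of 8 of the genes, minus its control mean, against the log2 ratio of 3′ to 5′ signal of Gapdh and Actb on the same array (points numbered by replicate, blue control, orange calorie restricted). Calorie-restricted replicates 1 to 3, at ratios of 1.75 to 2.21, lie above replicates 4 and 5 for Foxo1, Foxo4 and Klf9 and below them for Sesn1, Klf15 and Gadd45a.

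The 2 Krüppel-like factors were not called, and their values moved with the 3′ to 5′ ratio. Klf15, a glucocorticoid-induced regulator of amino acid breakdown and glucose production, read 1962, 2051, 1469, 1814 and 2147 on its 1 probe set, 1448181_at, in the controls and 1284, 1504, 2065, 2769.6 and 2398 in the calorie-restricted mice. Replicates 4 and 5 were above every control and replicate 1 was below every control. The difference was 0.04 ± 0.19 (95% interval -0.36 to 0.44, limma adjusted p = 0.915), 0.48 with the ratio as a covariate and 0.38 in replicates 4 and 5 alone. Klf15 thus lay higher in the same 2 restricted mice in which Foxo1 lay lower.

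Klf9, a glucocorticoid and thyroid hormone target, was read by 6 tested probe sets that did not move as one. The brightest, 1428288_at, read 6631, 6672, 6834, 6271 and 7651 in the controls and 7714, 7867, 6594, 5919.7 and 4824 in the calorie-restricted mice, a difference of -0.07 ± 0.12 (95% interval -0.33 to 0.20, limma adjusted p = 0.761). Replicates 1 and 2 were the highest of all 10 mice and replicates 4 and 5 the lowest. Another bright probe set, 1456341_a_at, read 4492, 3676, 3939, 3710.2 and 4736 in the controls and 7242, 7520.2, 5885, 4100.2 and 2960.2 in the calorie-restricted mice. Calorie-restricted replicates 1 to 3 lay above every control and replicate 5 below every control, and the difference was 0.35 ± 0.21. With the ratio as a covariate 1428288_at was at -0.35 ± 0.12 (limma adjusted p = 0.2495) and 1456341_a_at at -0.22 ± 0.18, and in replicates 4 and 5 alone they were at -0.37 ± 0.14 (adjusted p = 0.262) and -0.27 ± 0.18.

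A dim Klf9 probe set, 1422264_s_at, was the only one of a gene other than Sesn1 on which the groups did not overlap. It read 346, 245.7, 267, 231.3 and 249 in the controls and 210.5, 228, 230.6, 143 and 147 in the calorie-restricted mice. The gap between the nearest mice was under 1 unit. The difference of -0.50 ± 0.19 (95% interval -0.90 to -0.10) missed the threshold (limma adjusted p = 0.113). Counting it, 4 of the 23 member probe sets had groups that did not overlap, all lower in calorie restriction, against 7.12% of all tested probe sets in either direction. The other 3 tested Klf9 probe sets gave 0.17 ± 0.15 (1428289_at), 0.02 ± 0.17 (1436763_a_at) and -0.45 ± 0.58 (1436952_at). With the ratio as a covariate all 6 tested Klf9 probe sets lay below 0, from -0.74 to -0.13, and in replicates 4 and 5 alone all but 1436952_at (0.27) did; none passed the threshold.

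Cited2 and Gadd45a came next after Sesn1 by p, and neither was called. Cited2, a co-regulator that competes with hypoxia-inducible factor for p300 and CBP and acts with PGC-1α in fasting liver, read 2691, 3151, 2719.8, 3723 and 3586 on 1452207_at in the controls and 2535, 1757, 2187, 2767 and 2233 in the calorie-restricted mice. Only calorie-restricted replicate 4 reached into the control range. The difference was -0.47 ± 0.13 (95% interval -0.76 to -0.18, limma adjusted p = 0.0518).

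The dimmer Cited2 probe set, 1421267_a_at, pointed the other way. It read 729.9, 722, 759, 696 and 915 in the controls and 810.3, 828, 1117, 1104 and 891 in the calorie-restricted mice, so that only control replicate 5 reached into the calorie-restricted range. The difference was 0.31 ± 0.13 (95% interval 0.03 to 0.58, limma adjusted p = 0.146). The opposite signs held with the ratio as a covariate (-0.48 and 0.40), in replicates 4 and 5 alone (-0.56 and 0.31) and after quantile normalization (-0.47 and 0.37). The sources used here do not give which Cited2 transcripts each probe set reads.

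Gadd45a, a stress gene that slows the cell cycle and is induced by p53 and FoxO factors, read 1106, 706, 698, 659 and 885 on 1449519_at in the controls and 527, 468, 356, 601 and 677 in the calorie-restricted mice. Calorie-restricted replicate 5 alone lay above the lowest control. The mean signal was 811 ± 186 in control and 526 ± 123 in calorie-restricted mice (SD, n = 5 each), a difference of -0.63 ± 0.18 (95% interval -1.03 to -0.24, limma adjusted p = 0.0554). It passed the threshold without calorie-restricted replicate 4 (-0.69, adjusted p = 0.0451) or 5 (-0.73, adjusted p = 0.0275). Without these arrays the calls over all tested probe sets also rose, from 1371 to 2104 and 2481. The difference in 3′ to 5′ ratio between the diets rose from 0.62 to 0.73 and 0.75. Gadd45a was at -0.39 with the ratio as a covariate and at -0.26 in replicates 4 and 5 alone.

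Bcl6, a repressor that opposes fasting lipid genes in liver and shapes germinal centre B cells, varied widely between mice of one diet. It read 971, 429, 398, 559 and 700.2 on 1421818_at in the controls and 533, 433, 1091, 472 and 1173 in the calorie-restricted mice. Both groups held low and high mice. The difference was 0.22 ± 0.31 (95% interval -0.44 to 0.88, limma adjusted p = 0.686), and the dimmer probe set 1450381_a_at gave -0.24 ± 0.21. With the ratio as a covariate they were at 0.45 and -0.08.

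The 5 member probe sets left untested read between 6.49 and 224 on all arrays. Without the filter their differences lay between -0.71 and 0.67, and the lowest unadjusted p among them was 0.0882, that of Sesn1 1444376_at.

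The other genes of the pathway are given from 7 lists, chosen with earlier results of these data known and taken by the brightest probe set of each gene. Together they held 122 tested genes, of which 12 were called by limma. With the 3′ to 5′ ratio in the model 0 of them were called (32 at an unadjusted p under 0.05), and in replicates 4 and 5 alone 4 were. For comparison, 376 of all 12196 tested genes were called higher and 368 lower, with a median difference of -0.01. In the insulin and Akt arm upstream of FoxO, 0 of 13 tested genes were called and 3 had an unadjusted p under 0.05. Those were Pik3r1, the regulatory subunit of PI3-kinase (-0.27 ± 0.10, adjusted p = 0.0989), Irs1, the insulin receptor substrate (-0.35 ± 0.13, adjusted p = 0.126), and Sgk3, a kinase related to Akt (-0.42 ± 0.19, adjusted p = 0.177). Sgk3 was at -0.26 without calorie-restricted replicate 2 and at -0.21 with the ratio as a covariate. The median of that list was -0.12.

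Among enzymes and partners that modify FoxO proteins, 1 of 17 tested genes was called. Sirt1, a deacetylase of FoxO factors, fell from 744 ± 102 to 512 ± 44 (SD, n = 5 each), a difference of -0.53 ± 0.12 (limma adjusted p = 0.0278), with no overlap between groups. The median of that list was 0.05. Of 30 tested FoxO target genes, with a median of -0.08, 1 rose and 1 fell. Sod2, the superoxide dismutase of mitochondria, rose from 11762 ± 566 to 14669 ± 1123 with no overlap (0.32 ± 0.07, limma adjusted p = 0.0302). Its value was 0.14 after quantile normalization, and its other probe sets gave 0.69, 0.03 and 0.02. Ccng2, an atypical cyclin that restrains the cell cycle, fell from 1389 ± 156 to 1028 ± 116 (-0.43 ± 0.11, limma adjusted p = 0.0412).

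**Figure D4:**
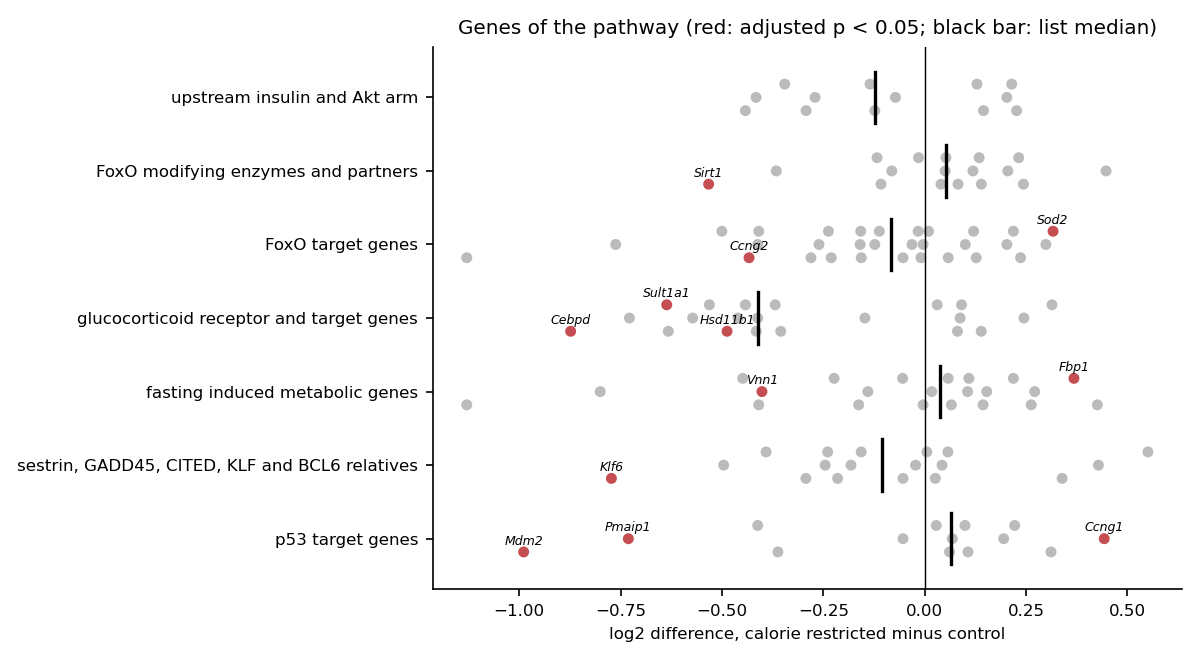
Log2 difference, calorie restricted minus control, of each tested gene (points, brightest probe set, n = 5 mice per group) in 7 lists around the FoxO pathway; points are spread vertically for legibility, red and named where the limma adjusted p was under 0.05, and black bars are list medians. The glucocorticoid list lies lowest, with a median of -0.41, and the medians of the other 6 lie between -0.12 and 0.06.

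In the list of the glucocorticoid receptor and its targets, 3 of 21 tested genes fell and none rose, 14 lay below 0, and the median was -0.41. Sult1a1, a sulfotransferase, fell from 1291 ± 272 to 824 ± 107 (-0.64 ± 0.14, limma adjusted p = 0.0263). Cebpd, a transcription factor of the acute phase response, fell from 1537 ± 699 to 799 ± 149.6 (-0.87 ± 0.23, adjusted p = 0.0403), while its other probe set gave -0.10. Control replicate 5 was highest for both genes, at 1765 against 1101 to 1271 for Sult1a1 and 2767 against 1071 to 1421 for Cebpd. Without that mouse Sult1a1 was at -0.52 and Cebpd at -0.64 (limma adjusted p = 0.0416 and 0.0447). Hsd11b1, the enzyme that regenerates active glucocorticoid, fell from 4023 ± 447 to 2903 ± 606 (-0.49 ± 0.13, adjusted p = 0.0475). With the ratio as a covariate Hsd11b1 was at -0.15. The receptor gene itself, Nr3c1, was at 0.03. Of the members that glucocorticoids induce, Klf15 was at 0.04 (0.48 with the covariate and 0.38 in replicates 4 and 5 alone) and Klf9 at -0.07 (-0.35 and -0.37).

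Fasting-induced metabolic genes had a median of 0.04 over 22 tested genes, of which 1 rose and 1 fell. Fbp1, the fructose bisphosphatase of glucose production, rose from 26772 ± 1139.8 to 34591 ± 2379.5 (0.37 ± 0.07, limma adjusted p = 0.0167), but was at 0.01 after quantile normalization. Vnn1, the pantetheinase, fell from 7084 ± 733 to 5371 ± 619 (-0.40 ± 0.10, adjusted p = 0.0363), while its other probe set gave -0.03. Among 18 tested relatives of the members, with a median of -0.11, 1 was called: Klf6, an injury-induced Krüppel-like factor, fell from 1237 ± 156 to 739 ± 202 (-0.77 ± 0.16, adjusted p = 0.0223), and all 5 of its probe sets lay below 0.

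Since Sesn1 and Gadd45a are also p53 targets, a list of the p53 gene and its other targets (14 tested) was set beside them. The median of the list was 0.06, with 9 genes above 0 and 5 below, and 2 were called lower and 1 higher. Pmaip1 (Noxa), a death promoter, fell from 561 ± 159.9 to 332 ± 51.4 (-0.73 ± 0.17, limma adjusted p = 0.0316). Mdm2, the ligase that degrades p53, fell from 1259 ± 137 to 688 ± 315 (-0.99 ± 0.25, adjusted p = 0.0357), but was at -0.28 with the ratio as a covariate. Ccng1, a cyclin that p53 induces, rose from 4882 ± 637 to 6639 ± 894 (0.44 ± 0.11, adjusted p = 0.0391), with other probe sets at 0.12 and -0.21. Sesn1 therefore fell beside 2 called p53 targets that fell and 1 that rose.

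3 further genes were picked out after their values were seen, because fasting or glucocorticoids are known to induce them. They are already counted in the lists above, and their direction is not that of every such gene. Of the fasting-induced genes 12 lay above 0 and 10 below, and of the FoxO targets 10 lay above 0 and 20 below. Those above 0 include Cat (0.30 ± 0.10) and G6pc (0.22 ± 0.09), neither of them called. Pdk4, a brake on glucose oxidation and a FoxO target, was at -1.13 ± 0.32 (limma adjusted p = 0.0528), from a mean of 1948 ± 1070.0 in control to 828 ± 278 in calorie-restricted kidney. Fkbp5, a chaperone of the glucocorticoid receptor, was at -0.63 ± 0.19 (adjusted p = 0.0621), and its dimmer probe set at -0.98 ± 0.25 (adjusted p = 0.0396). Tsc22d3 (GILZ) was at -0.37 ± 0.15 (adjusted p = 0.133), and at -0.24 without control replicate 5, while its other probe sets gave -0.19 and 0.21. In replicates 4 and 5 alone Pdk4 was at -1.79 and the brightest probe set of Fkbp5 at -1.09. Both values include control replicate 5, the highest control for each gene. It read 3678.5 for Pdk4 (810 to 2071.5 in the other controls) and 3956 for Fkbp5 (1960 to 3501). With all arrays but that one, Pdk4 was at -0.86 and Fkbp5 at -0.52.

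Markers of some kidney cell types were called between the diets, and the share called among all 12196 tested genes was 6.1%. In bulk kidney fewer cells of a type and less RNA per cell cannot be told apart. Of 15 proximal tubule markers 10 rose and 0 fell, with a summed signal of 168082 to 218315 in control and 248533 to 291578 in calorie-restricted mice. These markers were bright, with mean signals of 2992 to 29680. Plain array means were also higher in calorie restriction (786 to 831 against 755 to 768). Of 10 macrophage markers 5 fell and 0 rose, with sums of 21236 to 37048 and 15372 to 24990, and of 5 tested adipocyte markers 2 fell, with sums of 14309.7 to 20318 and 7166 to 12704. The lists of podocytes (8 tested) and of fibroblasts, mesangial and smooth muscle cells (9 tested) each had 2 called lower, and that of B cells (5 tested) had 1. In the collecting duct list (10 tested) 2 were called higher, while endothelium (10 tested), thick limb and distal tubule (10 tested), T cells (2 tested) and neutrophils (3 tested) had 0 called by limma and 5, 2, 0 and 2 genes with an unadjusted p under 0.05. The part of cell makeup in the falls of Sesn1, Sirt1, Klf6 and Cebpd, or in the values of Gadd45a, Cited2 and Bcl6, was not tested.

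Genes whose signals went most closely with a member over the 10 arrays, with the mean of each diet removed, were sought among 12186 genes as a description. Sesn1 (1433711_s_at) went most closely with Pilra (Pearson 0.96, Spearman 0.87) and Snx10 (0.95 and 0.99). Cited2 went with Eln (0.95 and 0.92) and Cavin2 (0.94 and 0.95), and Gadd45a with Lppos (0.93 and 0.90) and Snx3 (0.90 and 0.83). Foxo1 went with Tcf12 (0.97 and 0.92) and Nbas (0.96 and 0.94), Foxo3 with Peg3 (0.95 and 0.89) and Gsto1 (0.94 and 0.87), and Foxo4 with Pfn1 (0.98 and 0.90) and Slc45a1 (0.97 and 0.93). These are the highest of many values over 10 arrays that share scaling and RNA quality, so high values can arise without any tie between the genes.

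Another scaling changed the balance of calls. With each array centred on its median, the median difference of all tested probe sets moved by -0.10, and 20.6% of calls were higher in calorie restriction, against 48.1% as scaled by the authors. Under it 1533 of 22519 tested probe sets were called, 1218 of them lower. They include 5 member probe sets, all lower: those of Sesn1, Cited2 1452207_at (-0.57) and Gadd45a (-0.73).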

How the data were processed

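Kidney RNA of 10 mice (5 control, 5 calorie restricted) was measured on 1 array each. The deposited values are an intensity on a linear scale per probe set, the authors' MAS5 signals, which the submitters' processing notes tie to Affymetrix Expression Console. Per the labels' protocols RNA was extracted with Trizol. In these files each array has the same trimmed mean (2% left out at each end) while plain means differ between the diets, so differences that change with brightness stay in the data, and the number of arrays limits the precision.

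Groups were taken from the sample labels. Signals under 1 were set to 1 (922 values, 0 of them among tested probe sets) and log2 was taken. After removal of the 64 control probe sets, those with a mean log2 signal at or above 6.81, the median, were tested: 22519 probe sets, 12196 named genes. Genes were named from the platform annotation, in which 34958 probe sets have 1 symbol, 932 several and 9211 none; 34754 gene IDs were found in a RefSeq table. Probe sets ending in s_at can read related transcripts. The fit was limma 3.58.1 in R 4.3.3 (eBayes with an intensity trend, 2-sided, Benjamini-Hochberg over all tested probe sets, threshold 0.05). It was tested on simulated data with independent noise on each array. The simulation held no scaling or 3′ to 5′ difference between the groups, so it cannot show how the fit handles them. A gene was represented by its brightest probe set.

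The members, the gene lists, the markers and the alternatives were chosen with earlier results of these data known. Beside all members, the rule named up to 4 called genes per list with the smallest p, or 3 given as values where none was called, and the 2 genes most alike to each of 6 members. Alternatives were other filters, quantile normalization, median centring, log2(signal + 50), no trend, a covariate for the 3′ to 5′ ratio, replicates 4 and 5 alone or against all controls, the replicate number as a block, each gene's probe sets averaged, and each array left out in turn.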

Additional observations from a re-analysis of the deposited data

Results flagged for a closer look

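In 84 groups of 5 arrays, most of them those of the tested member probe sets and of the named genes, the array farthest out was set against the others, and 6 stood apart by more than Dixon's critical value at 95%. Chance flags about 5% of such groups, so a count of this size is near what chance gives. Foxo4 in control replicate 2 was lowest, at log2 8.18 (signal 289.8 against 589 to 769 in the other controls). Klf9 on 1436952_at in calorie-restricted replicate 3 was lowest, at log2 4.19 (18.3 against 132 to 228). Irs1 in control replicate 1 was lowest, at log2 8.75 (430.0 against 568 to 614). Sirt1 in calorie-restricted replicate 2 was lowest, at log2 8.77 (436 against 514 to 539). Sod2 in control replicate 1 was highest, at log2 13.64 (12749.6 against 11320.1 to 11677). Tsc22d3 in control replicate 5 was highest, at log2 11.20 (2359 against 1375 to 1586).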

How the results depend on the processing

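The fall of Sesn1 kept its sign under all alternatives run, while its call did not. Among all tested probe sets 1371 were called. The count was 287 with no filter, 751 after quantile normalization, 243 without the intensity trend, 9 with a covariate for the 3′ to 5′ ratio, 1 for restricted replicates 4 and 5 against the 5 controls and 198 in replicates 4 and 5 alone. In the same order the member probe sets called, 3 at first, were 1, 2, 1, 0, 0 and 0, with 8, 7 and 10 at an unadjusted p under 0.05 in the last 3 settings. After median centring 5 were called, beside 1533 of all tested probe sets. In the order above, the list genes called, 12 at first, were 1, 5, 0, 0, 0 and 4, with 36, 32 and 18 at an unadjusted p under 0.05 in the settings with 0. The cause of these lost calls was not tested.

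Sesn1 was at -0.54 with no filter (adjusted p = 0.0624) and without trend (0.0601), -0.49 after quantile normalization (0.0533), -0.38 with the covariate (0.351), -0.33 for restricted replicates 4 and 5 against the 5 controls (0.495) and -0.43 in replicates 4 and 5 alone (0.285). Cited2 was called with the stricter filter (-0.47, adjusted p = 0.0412) and after median centring (-0.57, 0.0420), as was Gadd45a (-0.63, 0.0429, and -0.73, 0.0423).

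Directions that turned were not called in any setting, and the cause was not tested. Under the covariate, restricted replicates 4 and 5 against the 5 controls, and replicates 4 and 5 alone, Foxo1 was at -0.33, -0.36 and -0.55, Foxo4 at -0.22, -0.046 and -0.39, and Sesn3 at -0.080, -0.21 and -0.13. Foxo3 was at -0.090 with the covariate, -0.23 in replicates 4 and 5 alone and -0.016 as the mean of its probe sets. It stayed above 0, at 0.074, for restricted replicates 4 and 5 against the 5 controls. Median centring gave -0.024 for Sesn3 and -0.057 for Klf15, and the mean of its probe sets gave -0.0076 for Bcl6.

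Leaving out 1 array gave 125 to 2481 called probe sets in all, 0 to 5 member probe sets (0 without control replicate 2 or calorie-restricted replicate 2, with 6 and 8 at an unadjusted p under 0.05, 1 without control replicate 4 or calorie-restricted replicate 1 or 3, and 5 without calorie-restricted replicate 4 or 5) and 1 to 18 list genes (1 to 6 without control replicate 2, 3, 4 or 5 or calorie-restricted replicate 1, 2 or 3, and 18 without calorie-restricted replicate 4). The differences ranged from 0.0070 to 0.26 for Foxo1, 0.056 to 0.31 for Foxo3, -0.013 to 0.34 for Foxo4, -0.60 to -0.46 for Sesn1, -0.069 to 0.16 for Sesn3, -0.091 to 0.19 for Klf15, -0.14 to 0.038 for Klf9, -0.54 to -0.38 for Cited2, 0.021 to 0.41 for Bcl6 and -0.73 to -0.50 for Gadd45a. Foxo4 turned without control replicate 2 (-0.013), Sesn3 without calorie-restricted replicate 3 (-0.069), Klf9 without calorie-restricted replicate 5 (0.038), and Klf15 without control replicate 3 (-0.047) or calorie-restricted replicate 4 (-0.091) or 5 (-0.039). Cited2 was called without control replicate 1 (adjusted p = 0.0434) or calorie-restricted replicate 4 (0.0304), fits that called 1339 and 2104 probe sets in all. The difference in 3′ to 5′ ratio ranged from 0.49 to 0.75 (exact permutation p = 0.0397 to 0.0794).

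Replicate numbers are shared by the groups, but same-numbered arrays did not deviate together (correlations of -0.14 to -0.09, and 0 of 5 arrays closest to their own number). With the replicate number as a block, 127 probe sets were called in all, 0 of them member probe sets (6 at an unadjusted p under 0.05) and 0 list genes (33 at an unadjusted p under 0.05), and Sesn1 was at -0.54 (adjusted p = 0.0710).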

Other observations

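The sign of a gene depended on which of its probe sets was read for 5 of the 7 members with more than 1 tested probe set: Foxo1, Foxo3, Klf9, Cited2 and Bcl6. With a covariate for the 3′ to 5′ signal ratio the tested probe sets of Foxo1, Foxo3 and Klf9 all lay below 0, and both signs were left for Cited2 and Bcl6. Cited2 gave -0.47 ± 0.13 and 0.31 ± 0.13, with unadjusted limma p-values of 0.00338 and 0.0303, and Bcl6 gave 0.22 ± 0.31 and -0.24 ± 0.21. Sesn1, among tested probe sets, and Sesn3 gave 1 sign each. For Klf6, a relative of Klf9 and Klf15, the lowest difference was -1.21 ± 0.19 on 1427742_a_at (limma adjusted p = 0.0125), with signals of 348 to 472 in control and 119 to 252 in calorie-restricted mice, which did not overlap.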
